A study of Mus musculus with 14 samples.

Results

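Genes of the insulin, insulin-like growth factor (IGF) and FoxO axis were followed for acetylation of histone H3 at lysine 9 (H3K9ac), which marks promoters and enhancers in use, in regenerating mouse liver. There were 10 genes: Insr, Irs1, Irs2, Foxo1, Foxo3, Depp1, Igfbp1, Igfbp2, Igf1 and Ghr. Their regions were taken by position, as every called peak that overlapped a gene's RefSeq span (GRCm38.p6, the coordinates of mm10) extended by 10 kb on each side. This gave 668 of 357969 peaks, which merged into 119 of 57979 regions, and 16 of the 12375 regions that held a peak in all 12 libraries. The genes were chosen by pathway with earlier d22 and pbs tag counts of these libraries known, among them the calls at Depp1 and Igfbp2, so every difference between the title groups is given for them as a description.

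Chromatin immunoprecipitation and sequencing (ChIP-seq) was run on livers of male C57BL6/J mice aged 2 to 3 months, taken 12 h after partial hepatectomy, and the series addresses what a delay of the hypoglycaemia after the operation does to H3K9ac. The libraries fall by title into 6 named d22 and 6 named pbs. The titles do not match the treatment labels: vehicle (diluted PBS) is the label of the d22 titles, and 22.5% dextrose in vehicle is that of the pbs titles. Names here are titles only, differences are taken as d22 minus pbs, and no treatment is assigned to either title group. The label of both pooled inputs is dextrose, also that of the input titled d22. All 12 libraries share the strain, sex, operation, time and antibody (ab10812 against acetylated H3K9). Nothing in the labels says that they came from separate animals, so p-values and intervals measure only the spread between these samples.

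Depth after filtering was 6343891 to 13084426 tags in d22 and 6385610 to 13259411 tags in pbs, and the lists held 26352 to 44585 peaks in d22 and 26377 to 30780 in pbs. Library d22 4 stood apart, with the fewest tags and the most peaks. The caller used 1 pooled input for every d22 list and another for every pbs list, so input and title group cannot be told apart in called length, fold enrichment or the tags of a called peak. The liver label fitted the marker genes: all 7 hepatocyte genes had a peak at a gene end in all 12 libraries, against 1 of 5 macrophage (Cd68), 2 of 5 endothelial (Pecam1 and Kdr), 0 of 5 stellate, 1 of 5 cholangiocyte (Sox9), 1 of 5 lymphocyte (Cd79a) and 0 of 5 neutrophil genes. No peak there in any library was found for 1 macrophage, 0 endothelial, 2 stellate, 4 cholangiocyte, 4 lymphocyte and 4 neutrophil genes, of 5 each. Others were called in part of the libraries, such as Stab2 in 11, Cdh5 in 9, Elane in 7 and Reln in 6. In whole liver, fewer cells of a type and less of the mark per cell cannot be told apart.

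Insulin binds its receptor, which phosphorylates insulin receptor substrate proteins and through PI3 kinase activates AKT. AKT phosphorylates FoxO transcription factors, which then leave the nucleus, so that FoxO targets such as Igfbp1 are expressed in the liver in fasting and repressed after feeding. Growth hormone acts on hepatocytes through its receptor and makes the liver the main source of circulating IGF1, whose access to tissues is set by IGF-binding proteins.

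The stretch of 250 bases before the RefSeq start is shown for Depp1 and Igfbp2, at whose starts the title groups did not overlap, and for the genes whose promoter held a match to a FoxO-related element. Igfbp2 has a second RefSeq start at position 72825387, whose stretch held no match and is not shown. Distances at Igfbp2 are from the first, at 72824480. Sequences are from RefSeq (GRCm38.p6), on the gene's strand, in lower case, and capitals mark matches.
Depp1 (chr6:116650434-116650683, plus strand): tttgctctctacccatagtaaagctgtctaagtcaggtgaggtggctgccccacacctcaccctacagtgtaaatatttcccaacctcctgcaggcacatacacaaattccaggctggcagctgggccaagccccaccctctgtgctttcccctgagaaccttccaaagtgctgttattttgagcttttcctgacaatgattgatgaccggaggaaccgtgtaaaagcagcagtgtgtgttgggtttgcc
Igfbp2 (chr1:72824230-72824479, plus strand): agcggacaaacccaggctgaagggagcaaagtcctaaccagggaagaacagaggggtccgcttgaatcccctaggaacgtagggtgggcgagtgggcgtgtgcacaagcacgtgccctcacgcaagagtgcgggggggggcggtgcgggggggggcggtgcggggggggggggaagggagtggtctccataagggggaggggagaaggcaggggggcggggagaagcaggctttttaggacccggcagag
Igfbp1 (chr11:7197537-7197786, plus strand): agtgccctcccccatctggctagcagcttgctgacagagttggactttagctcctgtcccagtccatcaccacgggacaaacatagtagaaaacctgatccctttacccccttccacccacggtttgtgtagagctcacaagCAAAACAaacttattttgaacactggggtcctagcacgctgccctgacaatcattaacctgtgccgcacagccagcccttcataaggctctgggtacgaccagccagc
Irs1 (chr1:82291440-82291689, minus strand): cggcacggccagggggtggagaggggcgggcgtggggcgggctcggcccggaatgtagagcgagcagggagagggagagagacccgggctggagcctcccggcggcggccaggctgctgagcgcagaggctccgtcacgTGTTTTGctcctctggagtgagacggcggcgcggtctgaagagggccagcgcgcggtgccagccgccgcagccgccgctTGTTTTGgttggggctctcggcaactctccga
Irs2 (chr8:11008930-11009179, minus strand): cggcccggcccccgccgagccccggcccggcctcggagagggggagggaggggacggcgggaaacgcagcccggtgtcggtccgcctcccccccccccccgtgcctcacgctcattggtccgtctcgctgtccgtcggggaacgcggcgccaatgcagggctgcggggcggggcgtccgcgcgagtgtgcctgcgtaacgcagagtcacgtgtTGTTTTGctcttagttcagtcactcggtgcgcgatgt

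The letters searched were GTAAACA, the core of the element that FoxO proteins bind, and CAAAACA, the core of the insulin response sequence known from the IGFBP1 promoter, each on both strands. GTAAACA was not found in these promoters, so the strings could not overlap there. The windows searched were 300 bases long, 250 before and 50 after the start, and 9 of the 10 genes had an entry, with 11 windows in all. CAAAACA stood on the gene's strand at -108 in Igfbp1 (the position of its first base from the start), and on the other strand at -37 in Irs2 and at -111 and -32 in Irs1. GTAAACA was in 0 of the 11 windows. Of 32851 promoters of the same length, 6.28% held CAAAACA, 3.65% held GTAAACA and 9.63% held either. The Depp1 window had 51.7% G and C and 4 CpG pairs, near the median of all promoters (52.7% and 7 CpG pairs). The Irs2 window had 72.0% G and C and 41 CpG pairs.

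At every gene a region at the start was called in all 12 libraries. These 10 start regions were wider than 78.1% (Irs1) to 98.0% (Igf1) of all shared regions. They were not compared with the start regions of other genes alone. The median width of the 16 shared regions, of which 6 were not start regions, was 4472 bp, against 2752 bp over all shared regions. Igf1, the circulating growth factor made in hepatocytes, had the widest, 9776 bp, wider than 98.0% of all shared regions. It also held the most tags, a mean of 380.4 CPM over the 12 libraries (counts scaled to a common total of tags in the tested regions), more than 99.1% of shared regions. Per kb of called peak the order of the levels was Ghr, Igf1, Foxo1, Insr, Foxo3, Irs2, Irs1, Igfbp1, Depp1 and Igfbp2. Ghr, the growth hormone receptor, had 59.5 ± 11.8 CPM per kb and Igfbp2 had 30.6 ± 5.29 (SD, n = 12 libraries), with a median of 31.7 over all shared regions. No gene differed from the next in this order by more than the larger of their SDs.

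The d22 and pbs libraries were set apart at the starts of Depp1 and Igfbp2, both lower in d22, and overlapped at the other 8 starts. Of all 12375 regions, 0.743% were set apart in this direction and 0.59% in the other. Of the 16 shared regions 2 passed an adjusted p of 0.05 in tags (edgeR quasi-likelihood test, Benjamini-Hochberg over all 12375 regions), both lower in d22. Over all regions 1.01% passed, 0.453% higher and 0.558% lower in d22. Both calls were known when the genes were chosen, so nothing is read from this count and no p is given in support of them. Values were positive in 9 and negative in 7 of the 16 regions, with a median log2 difference of 0.059, against 0.0032 over all regions.

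**Figure D1:**
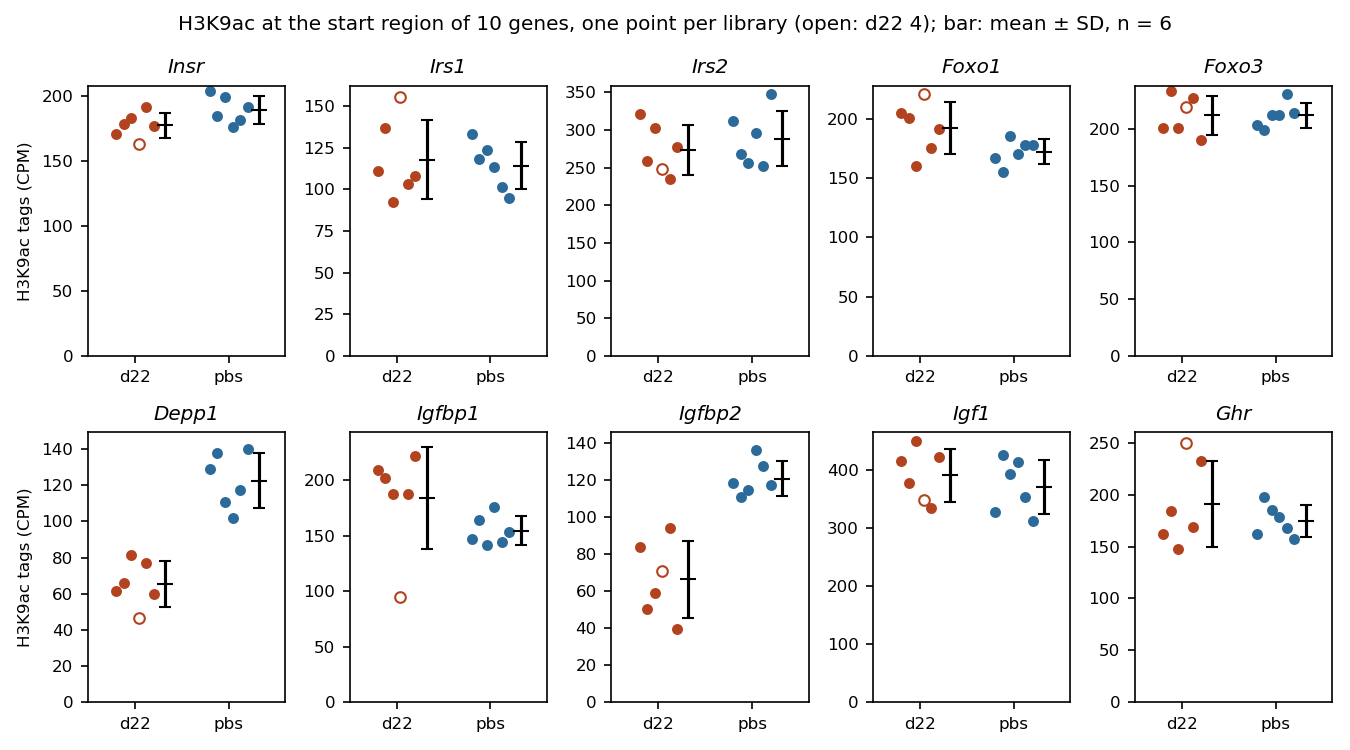
H3K9ac tags in CPM (y axis, from 0) at the start region of each gene in 6 d22 and 6 pbs libraries, 1 point per library, with the mean and SD as a bar and d22 4 as an open point. The groups do not overlap at Depp1 (46.5 to 81.6 CPM in d22, 101.7 to 139.8 in pbs) or Igfbp2 (39.8 to 94.2 in d22, 110.8 to 136.2 in pbs). Over all regions 0.743% do not overlap in this direction. Library d22 4 lies below all other libraries at Igfbp1 with 94.9 CPM.

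Insr encodes the insulin receptor. Its start region (chr8:3274585-3281191), the gene-end region with the most tags and at the upper end of the gene, had 163.2, 178.0 and 191.5 CPM in d22 (lowest, median and highest library), against 176.5, 188.1 and 203.9 CPM in pbs. The ranges overlapped, and the log2 difference was -0.09 with a 95% interval of -0.24 to 0.06 (edgeR adjusted p = 0.702). Inside the gene a region 57.5 to 59.5 kb from that end had 30.2 ± 12.9 CPM in d22 and 20.1 ± 8.22 CPM in pbs (SD, n = 6 each), with a log2 difference of 0.53 and an interval of -0.11 to 1.17 (edgeR adjusted p = 0.569), and 0.33 without d22 4. Another, 22.5 to 24.7 kb from it, had 27.3 ± 7.83 CPM in d22 and 28.4 ± 5.95 CPM in pbs (SD, n = 6 each). The weak internal regions thus had wide intervals and the strong start region a narrow one. Of the 30 regions at Insr, 14 were called in 1 library and 13 in 2 to 11.

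Irs1 and Irs2 encode the substrate proteins that carry the signal of the receptor to PI3 kinase, and Irs2 is itself a FoxO target in liver. The Irs1 start region (chr1:82289179-82293262) had 92.5, 109.4 and 155.6 CPM in d22 (lowest, median, highest), against 94.9, 115.8 and 133.1 CPM in pbs, a log2 difference of 0.03 with an interval of -0.22 to 0.29 (edgeR adjusted p = 0.955). The group ranges lay almost on top of each other, and the highest library was d22 4, without which the log2 difference was -0.042. A second shared region in the body of Irs1, 3.6 to 8.8 kb after the start (chr1:82282635-82287861), had 78.9, 104.7 and 109.7 CPM in d22, against 87.5, 124.3 and 136.7 CPM in pbs. There 5 of the 6 pbs libraries lay above every d22 library. Its log2 difference was -0.29 with an interval of -0.53 to -0.04 (edgeR adjusted p = 0.371). It was called over 3563 ± 793 bp in d22 and 4529 ± 427 bp in pbs (SD, n = 6 each), and its tags per kb were 28.5 ± 6.07 CPM in d22 and 26.5 ± 3.37 CPM in pbs (SD, n = 6 each).

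At Irs2 the start region spanned 8282 bp (chr8:11001714-11009995) and also reached the gene 9530052E02Rik, so its tags cannot be assigned to Irs2 alone. Its lowest, median and highest values were 234.7, 268.3 and 321.0 CPM in d22, against 252.5, 281.8 and 347.2 CPM in pbs. Its groups overlapped, with a log2 difference of -0.08 and an interval of -0.28 to 0.13 (edgeR adjusted p = 0.846).

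Foxo1 and Foxo3 encode the FoxO factors that insulin signalling keeps out of the nucleus. The Foxo1 start region (chr3:52266470-52271831) had 160.4, 196.0 and 221.0 CPM in d22 (lowest, median, highest), against 154.8, 173.9 and 185.4 CPM in pbs. Of the d22 libraries 4 lay above every pbs library and the lowest d22 library lay inside the pbs range. The log2 difference was 0.16 with an interval of -0.02 to 0.34 (edgeR adjusted p = 0.543). Per kb of called peak it had 50.3 ± 6.46 CPM in d22 and 42.4 ± 6.52 CPM in pbs (SD, n = 6 each; limma adjusted p = 0.861).

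Foxo3 had almost the same mean in both groups at its start (chr10:42272823-42278955, shared with the predicted gene Gm38485): 211.9 ± 17.1 CPM in d22 and 212.0 ± 11.0 CPM in pbs (SD, n = 6 each). Its log2 difference was -0.0011 with an interval of -0.16 to 0.16 (edgeR adjusted p = 0.999). The shared region inside Foxo3, 22.6 to 26.2 kb after the start, had 24.4 ± 7.48 CPM in d22 and 19.0 ± 9.28 CPM in pbs (SD, n = 6 each; edgeR adjusted p = 0.765).

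Depp1 encodes a small protein induced by FoxO factors and by fasting, with a part in autophagy. Its start region (chr6:116649840-116654288) covers the whole gene of 2164 bp and overlaps the span of its neighbour Rassf4, so its tags cannot be assigned to Depp1 alone. It had 46.5, 63.9 and 81.6 CPM in d22 (lowest, median, highest), against 101.7, 123.0 and 139.8 CPM in pbs. Every d22 library lay below every pbs library; over all regions, 0.743% had non-overlapping libraries in this direction and 0.59% in the other. The means were 65.4 ± 12.6 CPM in d22 and 122.6 ± 15.4 CPM in pbs (SD, n = 6 each), a log2 difference of -0.90 ± 0.12 (SE).

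The peak at Depp1 was also called narrower in d22, over 2116 ± 510 bp, against 3215 ± 751 bp in pbs (SD, n = 6 each), but did not pass by called length (limma adjusted p = 0.527). It began at a median of 201.5 bp before the start in d22 and 493 bp before it in pbs, and it ended at a median of 1898.5 bp after the start in d22 and 2771 bp after it in pbs. In d22 4 the call began only 423 bp inside the gene, and without d22 4 the log2 difference in tags was -0.83. Per kb of called peak the region held 31.4 ± 5.00 CPM in d22 and 39.1 ± 5.24 CPM in pbs (SD, n = 6 each), a log2 difference of -0.32 ± 0.13 (SE), where the median of all regions was 0.084. On that scale the groups overlapped and the call ended (limma adjusted p = 0.861).

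Igfbp2 encodes an IGF-binding protein secreted by the liver. Its start region (chr1:72823524-72827624) had 39.8, 65.2 and 94.2 CPM in d22 (lowest, median, highest), against 110.8, 118.0 and 136.2 CPM in pbs. The groups did not overlap (0.743% of all regions did not overlap in this direction), and the d22 libraries were spread more widely than the pbs libraries. The means were 66.4 ± 20.6 CPM in d22 and 120.9 ± 9.32 CPM in pbs (SD, n = 6 each), a log2 difference of -0.86 ± 0.16 (SE). With only the libraries of 49 bp tags (d22 1 to 6 and pbs 2, 3 and 5) the log2 difference was -0.82 and the call ended (edgeR adjusted p = 0.134).

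Called length at Igfbp2 did not overlap between the groups, at 1598 to 3227 bp in d22 and 3324 to 4051 bp in pbs. The region did not pass by called length (limma adjusted p = 0.293), and the share of all regions split this way by length was not counted. The 3' edge of the call lay at a median of 1901 bp after the start in d22 and 2790 bp after it in pbs. Per kb the region held 27.3 ± 4.48 CPM in d22 and 33.9 ± 3.84 CPM in pbs (SD, n = 6 each), with overlapping groups and a log2 difference of -0.32 ± 0.13 (SE; limma adjusted p = 0.861).

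**Figure D2:**
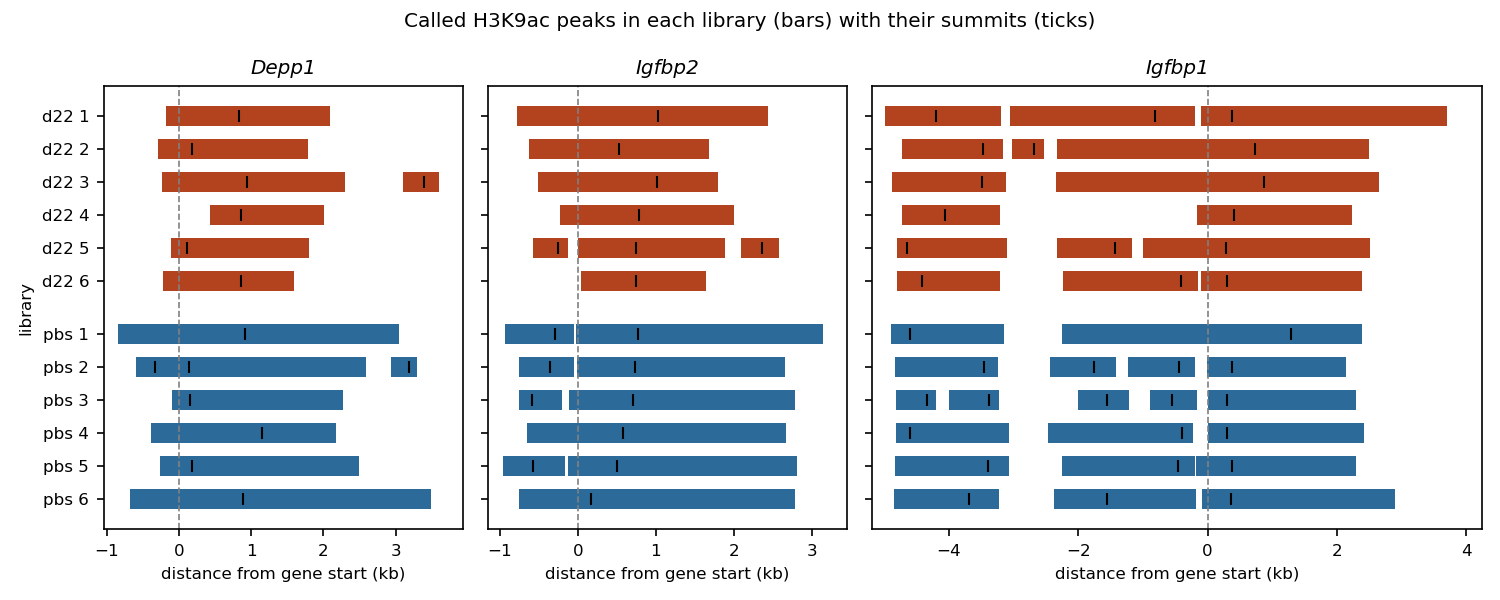
Called peaks (bars) and their summits (ticks) in each of 6 d22 and 6 pbs libraries, as distance in kb from the start of Depp1, Igfbp2 and Igfbp1 (dashed line; each gene runs to the right). At Depp1 and Igfbp2 the calls end at a median of 1898.5 and 1901 bp after the start in d22 and 2771 and 2790 bp after it in pbs, and at the Igfbp1 start only d22 4, from 157 bp before the start, was not called further upstream.

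Igfbp1, a textbook target of FoxO1 that insulin represses, encodes a secreted IGF-binding protein and was among the early genes named for liver regeneration. Its start region (chr11:7194725-7201494) had 94.9, 194.8 and 221.8 CPM in d22 (lowest, median, highest), against 141.8, 150.4 and 175.9 CPM in pbs. The other 5 d22 libraries, at 187.3 to 221.8 CPM, lay above every pbs library, and d22 4 lay below every one. The share of all regions that split this way without d22 4 was not counted. Over all 12 libraries the log2 difference was 0.27 with an interval of -0.03 to 0.56 (edgeR adjusted p = 0.526). Without d22 4 it was 0.39, and the region passed (edgeR adjusted p = 0.0210), where 139 of all 12375 regions passed.

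In d22 4 the Igfbp1 peak was called only from 157 bp before the start to 2237 bp after it, while the other libraries were called from at least 1999 bp before the start. The region was called over 4775 ± 1390 bp in d22 and 4504 ± 461 bp in pbs (SD, n = 6 each). Per kb it held 39.1 ± 5.54 CPM in d22 and 34.5 ± 3.88 CPM in pbs (SD, n = 6 each; limma adjusted p = 0.861), and d22 4, at 39.6 CPM per kb, lay within the range of the other d22 libraries.

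Upstream of Igfbp1, 5.0 to 3.1 kb before the start (chr11:7192797-7194719), a separate region was called in all 12 libraries. It had 37.0, 50.4 and 65.7 CPM in d22 (lowest, median, highest), against 27.6, 36.3 and 48.4 CPM in pbs, so that 5 of the 6 d22 libraries lay above 5 of the 6 pbs libraries. The log2 difference was 0.46 with an interval of 0.12 to 0.80 (edgeR adjusted p = 0.252). Called length differed by less than its spread, 1655 ± 114 bp in d22 and 1648 ± 141 bp in pbs (SD, n = 6 each). Per kb it held 30.4 ± 6.84 CPM in d22 and 22.1 ± 4.17 CPM in pbs (SD, n = 6 each), a log2 difference of 0.45 that was higher than in 99.3% of all regions (limma adjusted p = 0.835). In tags, Igfbp1 and Igfbp2, both IGF-binding proteins of the liver, had values of opposite sign at their starts, but the interval at Igfbp1 included 0. By fold enrichment both starts had negative log2 differences (-0.41 at Igfbp1 and -0.82 at Igfbp2).

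Igf1 and Ghr carry the growth hormone arm. At Igf1 the start region (chr10:87856584-87866359, which also overlaps the antisense gene Igf1os) had 333.6, 395.7 and 450.1 CPM in d22 (lowest, median, highest), against 312.4, 372.5 and 424.4 CPM in pbs. The groups overlapped over most of their range, with a log2 difference of 0.08 and an interval of -0.12 to 0.29 (edgeR adjusted p = 0.821). The summit lay 788 to 827 bp before the start in the RefSeq promoter table (position 87861111) in d22 and 793 to 829 bp before it in pbs, inside the RefSeq span of Igf1, which begins at 87858265. Its place differed by less than 50 bp among the 12 libraries. The region inside Igf1, 53.2 to 56.2 kb after the start, had 41.6, 43.5 and 114.8 CPM in d22, against 27.4, 53.2 and 58.9 CPM in pbs. Its positive log2 difference of 0.24 (interval -0.28 to 0.76; edgeR adjusted p = 0.790) turned to -0.021 without d22 4, the library with 114.8 CPM.

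For Ghr the start region (chr15:3580623-3585117) had 147.6, 176.5 and 249.5 CPM in d22 (lowest, median, highest), against 157.1, 173.1 and 197.7 CPM in pbs. The d22 libraries spanned the pbs range on each side. The log2 difference was 0.12 with an interval of -0.13 to 0.37 (edgeR adjusted p = 0.783), and without d22 4, the highest library, it was 0.040.

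**Figure D3:**
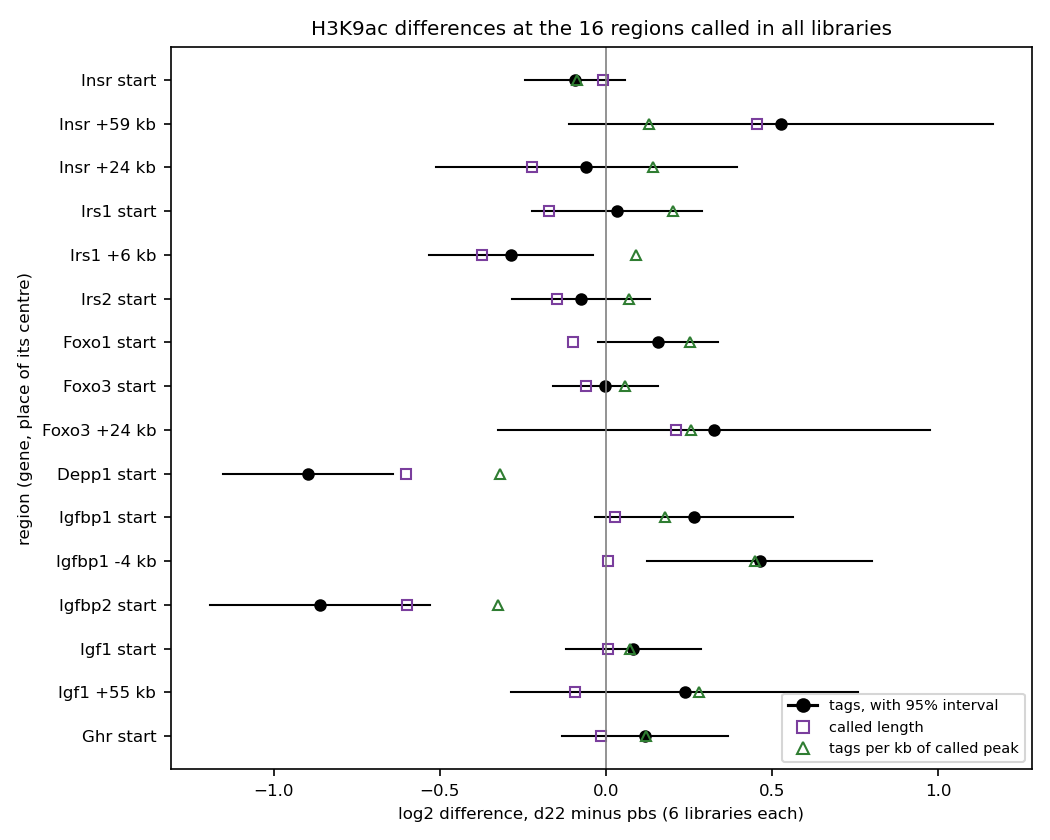
Log2 difference, d22 minus pbs (6 libraries each, x axis), at the 16 regions of the 10 genes called in all libraries: tags with their 95% interval (circles), called length (squares) and tags per kb of called peak (triangles). Depp1 and Igfbp2 lie left of 0 on all 3 scales (-0.90, -0.60 and -0.32 at Depp1; -0.86, -0.60 and -0.32 at Igfbp2), and 12 of the other intervals for tags include 0, leaving Irs1 +6 kb (-0.29) and Igfbp1 -4 kb (0.46) outside.

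Called length gave 0 of the 16 regions (limma, adjusted p under 0.05; 3 at unadjusted p under 0.05), where 0.0% of all regions passed. Its median log2 difference was -0.08 over the 16 and over all regions. Tags per kb likewise gave 0 of 16 (limma, 3 at unadjusted p under 0.05), against 0.0404% of all regions (0.0323% higher and 0.00808% lower in d22). The authors' fold enrichment over local background, a value of each peak, gave 2 of 16, both lower in d22, against 18.8% of all regions (1.27% higher and 17.5% lower in d22). They were again Depp1, with a fold of 26.4 ± 3.73 in d22, against 47.3 ± 10.5 in pbs, and Igfbp2, with 22.9 ± 4.20 in d22, against 40.5 ± 8.75 in pbs (SD, n = 6 each). The median log2 difference of fold enrichment was -0.30 over all regions, and relative to it each of the 2 regions had -0.52. At the Igfbp1 start fold enrichment had the other sign from tags, 34.6 ± 4.85 in d22, against 45.8 ± 5.64 in pbs (SD, n = 6 each), and -0.11 relative to the median.

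A gene's whole locus includes its start region, so its sum is not a separate result. Mean raw tags at Depp1 were 126.2 in d22 for both the start region and the locus, and 267.7 and 271.7 in pbs. At Igfbp2 they were 125.7 and 139.3 in d22, and 257.0 and 285.5 in pbs. Summed over the locus, tags were lower in d22 at Depp1 and Igfbp2. These were 2 of the 10 genes past the threshold, against 0.797% of 12419 gene loci (0.322% higher and 0.475% lower in d22). The Depp1 locus had 38.2 ± 8.57 CPM in d22 and 73.4 ± 8.83 CPM in pbs (SD, n = 6 each; CPM here is scaled to the sum over all gene loci, and peaks covered 2116 ± 510 bp in d22 and 3364 ± 825 bp in pbs). Igfbp2 had 42.7 ± 12.6 CPM in d22 and 78.3 ± 7.84 CPM in pbs (SD, n = 6 each, over 2832 ± 677 bp in d22 and 4497 ± 824 bp in pbs). The Igfbp2 call ended without pbs 4 (edgeR adjusted p = 0.0588), without pbs 5 (0.0538) and with no extension of the gene (0.0502). The log2 differences of the other loci ran from -0.12 at Irs1 to 0.35 at Igfbp1 (edgeR adjusted p = 0.725 and 0.526), and Igfbp1 passed without d22 4 (0.49, edgeR adjusted p = 0.0419).

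Regions called in some libraries only were most numerous at Insr, Foxo3, Igf1 and Ghr. These genes span 128728, 94851, 78783 and 265598 bp, so their windows were wide. The spans of the other genes run from 2164 bp at Depp1 to 81773 bp at Foxo1. The counts were not scaled to the width of the window. Of the 55 regions called in 2 to 11 libraries, 23 were called in more d22 libraries, 21 in more pbs libraries and 11 in equal numbers, and 0 differed by 4 or more libraries, against 2.85% of all such regions. Of all 18335 such regions, 6047 were called in more d22 libraries and 7513 in more pbs libraries, so that pbs was ahead. At the 10 genes d22 was slightly ahead, with 23 of 55 regions against 21. This difference from all regions was not tested. Fisher's exact test (two-sided, 53 regions called in 2 to 10 libraries) gave 0 after adjustment over 16871 regions and 0 at an unadjusted p under 0.05, with 0.0% passing over all regions. The smallest p this test can give with 6 libraries a group is 0.00216 (exact), which passes the adjustment only where at least 731 regions are called in all 6 libraries of one group and none of the other, so these counts of 0 say nothing about stability.

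Beside Depp1 and Igfbp2, Pck1 and Ddit4 passed among the genes of 4 lists drawn from the same pathways, where 1.01% of all regions passed. The lists were written with earlier results of these data known, each gene is represented by its strongest region within 1 kb of either end, and calls are those over all 12375 regions, of which 1348 (10.9%) had an unadjusted p under 0.05. From the receptor to AKT, 0 of 27 regions passed in either direction by edgeR (2 at unadjusted p under 0.05), with a median log2 difference of -0.026. The smallest p values were at Trib3, an inhibitor of AKT (0.44, and 0.26 without d22 4; edgeR adjusted p = 0.386), Ptpn1, a phosphatase of the receptor (0.23, adjusted p = 0.410), and Inppl1, a lipid phosphatase (0.21, adjusted p = 0.463).

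Among growth hormone and IGF genes, 0 of 18 regions were higher and 1 lower, Igfbp2, with 5 at unadjusted p under 0.05 and a median of 0.045. Next came Igfbp6, another IGF-binding protein, with 147.8 ± 51.9 CPM in d22 and 101.6 ± 6.20 CPM in pbs (SD, n = 6 each; edgeR adjusted p = 0.165; a log2 difference of 0.52, and 0.33 without d22 4), and Bcl6, a repressor of growth hormone targets in liver, with 866.6 ± 118 CPM in d22 and 740.8 ± 81.1 CPM in pbs (SD, n = 6 each; edgeR adjusted p = 0.386).

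In the list of FoxO factors, cofactors and targets 0 of 27 regions were higher and 2 lower, Depp1 and Pck1, with 10 at unadjusted p under 0.05 and a median of 0.040. Pck1 encodes the gluconeogenic enzyme phosphoenolpyruvate carboxykinase. Its region had 286.4, 327.4 and 376.8 CPM in d22 (lowest, median, highest), against 399.1, 440.9 and 479.4 CPM in pbs, with no overlap (0.743% of all regions in this direction). Pck1 fell in d22 by 0.43 on the log2 scale (edgeR adjusted p = 0.0100), and the call ended per kb of called peak (-0.11, limma adjusted p = 0.877), by fold enrichment (-0.21, limma adjusted p = 0.441), with 49 bp tags (edgeR adjusted p = 0.129) and with peaks up to 500 bp apart joined (edgeR adjusted p = 0.0604). Angptl4, an inhibitor of lipoprotein lipase, had -0.32 (edgeR adjusted p = 0.128) and passed with DESeq2 (adjusted p = 0.0183) and with library totals (edgeR adjusted p = 0.0163). G6pc, the glucose-6-phosphatase gene and another FoxO target, had 164.3 ± 24.0 CPM in d22 and 167.9 ± 24.8 CPM in pbs (SD, n = 6 each); it was picked out after its value was seen.

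Of the mTORC1 and nutrient-sensing genes 1 of 23 regions was higher and 0 were lower, with 2 at unadjusted p under 0.05 and a median of 0.012. The one was Ddit4, a stress-induced inhibitor of mTORC1. It had 198.7, 211.0 and 237.3 CPM in d22 (lowest, median, highest), against 133.6, 161.5 and 184.8 CPM in pbs, with no overlap (0.59% of all regions in this direction). The log2 difference was 0.41 (edgeR adjusted p = 0.0392). The call ended on leaving out d22 2, 3, 5 or 6 or pbs 2, 3, 4 or 5 (edgeR adjusted p up to 0.114, without pbs 5), with library totals (0.392), with 49 bp tags (0.0945), with a score of at least 100 (0.0632) and per kb (limma adjusted p = 0.861), and by fold enrichment, whose median over all regions was -0.30, it was called in the opposite direction (-0.61, limma adjusted p = 0.0248). Ulk1, the kinase that starts autophagy, had 0.40 (edgeR adjusted p = 0.0938) and passed with DESeq2 (adjusted p = 0.0206), with 49 bp tags (0.61, edgeR adjusted p = 0.0419) and without pbs 6 (edgeR adjusted p = 0.0478). Flcn, which acts on the Rag GTPases, had a log2 difference of 0.18 (edgeR adjusted p = 0.567).

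**Figure D4:**
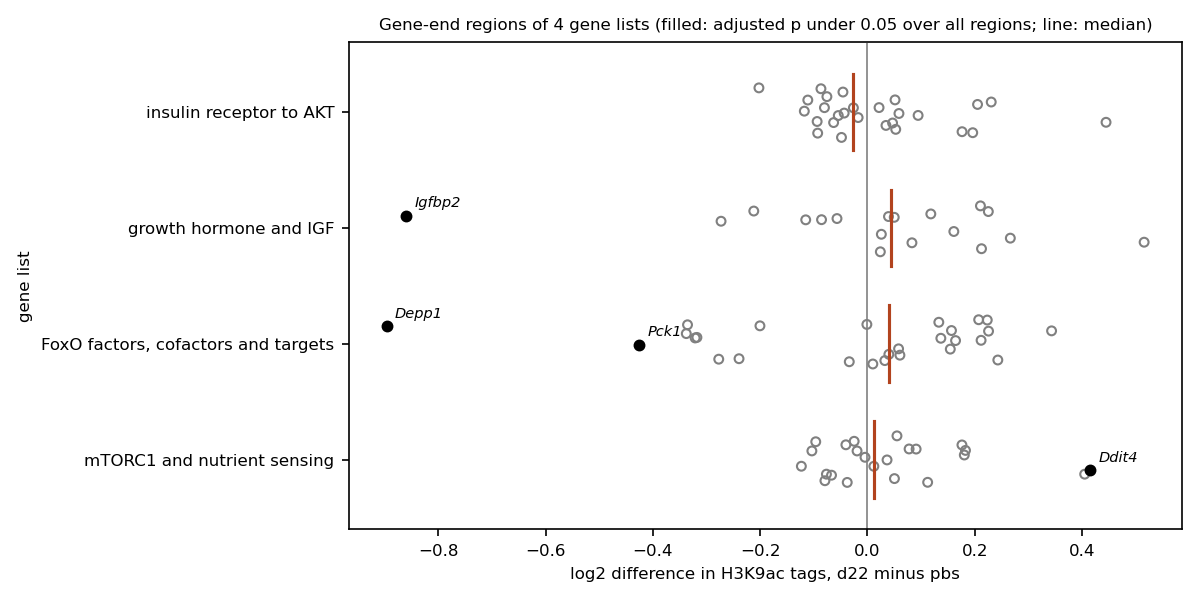
Log2 difference in H3K9ac tags, d22 minus pbs (x axis, 6 libraries each), at the gene-end regions of 4 gene lists, 1 point per region, filled where the adjusted p over all regions is under 0.05, with the median of each list as a line. The medians lie between -0.026 and 0.045, and the filled points are Igfbp2, Depp1 and Pck1 on the left and Ddit4 on the right.

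Across all 12 libraries the region whose tags ran most like those of Depp1 was at Pgm1, a phosphoglucomutase (Pearson r of log2 CPM 0.943, n = 12), followed by the region of Fcamr and Pigr (0.938) and that of the clock gene Per3 (0.936). For Igfbp2 they were at Rnf186 (0.931), Cox7b (0.918) and Ajuba (0.903). The libraries share their title groups, and all 6 of these regions had negative log2 differences, from -1.17 at Fcamr and Pigr to -0.30 at Pgm1. These correlations are a description.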

How the data were processed

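H3K9ac ChIP-seq peak tables of 12 libraries were used; 2 pooled inputs were not analysed here. Per the submitters' processing notes, the tools were CASAVA 1.8, Novoalign and MACS 1.4.2, with build mm10. Per the file headers, each library was called alone against the pooled input of its title group, with a p-value cutoff of 1e-05 and at most 1 tag per position. The deposited columns are, per peak, the raw count of tags, the length in bp, a score (the p-value as log10, times -10), a ratio (fold enrichment) and a false discovery rate in percent. The deposited fold and score are the authors' own values for each peak, and the deposited percent column was not used in a result.

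Peaks sharing at least 1 bp were merged into regions, and tags, lengths and the highest fold were taken per library. Where a library listed no peak, no count exists. Regions with a peak in all 12 libraries were tested by quasi-likelihood in edgeR 4.0.16 (R 4.3.3; robust, TMM, title group as the only term), and log2 length, CPM per kb and fold with limma 3.58.1, all with Benjamini-Hochberg adjustment at 0.05. SE is the size of the log2 difference over the root of F. Counting error at the depths given in the text is part of these tests. Fisher's exact test used SciPy 1.17.1.

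The 10 genes, the gene lists and the rules were chosen with earlier results of these data known. All 10 genes were named; in each list those past the threshold and the 3 with the smallest p were named, and 3 regions by likeness. A gene's start region is the one with the most tags at its RefSeq start (for Insr, at either gene end). The alternatives were DESeq2 1.42.0, library totals, filters on low counts, a caller score of at least 100, peaks up to 500 bp apart joined, regions with 1 peak per library, 49 bp tags, the replicate block, other units, other locus windows and leaving out each library.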

Additional observations from a re-analysis of the deposited data

Results flagged for a closer look

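In 128 groups of 6 libraries (16 regions, 4 measures, 2 title groups) 13 held a library whose gap to the nearest other was large for the range of its group. Chance gives about 1 in 20 groups. The 4 measures come from the same peaks of the same libraries, so the groups are not independent. The count of 13 was not tested against that rate. Of the 13, 10 were d22 4, the library with the fewest tags and the most peaks. In CPM, d22 4 had 94.9 at the Igfbp1 start, below the others of its group, and 114.8 at the region inside Igf1, above them. In CPM per kb it was the highest of its group at the region inside Insr 22.5 to 24.7 kb from the gene end (46.8), at the Irs1 start (56.4) and at the second Irs1 region (40.4). In fold enrichment it was the highest at both regions inside Insr (26.9 and 33.3), at the region inside Foxo3 (30.1), at that inside Igf1 (65.0) and at the Ghr start (114.4, against 28.5 to 40.8 in the other d22 libraries). The other 3 were pbs libraries: pbs 1 with a called length of 5921 bp at the Insr start, pbs 6 with 20.1 CPM per kb at the second Irs1 region and pbs 2 with 30.1 CPM per kb upstream of Igfbp1.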

How the results depend on the processing

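The Depp1 and Igfbp2 start regions kept a negative sign under every alternative run (-1.13 to -0.32 and -1.10 to -0.32), and their calls ended per kb (limma adjusted p = 0.861 each) and, for Igfbp2, with 49 bp tags. Of the 16 regions 1 passed with 49 bp tags and 0 per kb (limma; 3 at unadjusted p under 0.05), and 2 to 3 on leaving out single libraries. None of the 16 had exactly 1 peak in every library, so that alternative gave them no value. Of the 10 loci 1 passed with no extension, and 1 to 3 on leaving out single libraries. Over all regions 125 passed, against 272 with DESeq2, 454 with library totals, 2328 by fold enrichment, 39 with 49 bp tags, 5 per kb, 0 of 2599 regions with 1 peak per library (edgeR, 184 at unadjusted p under 0.05) and 64 to 139 on leaving out single libraries. Over all loci 99 passed, against 263 with DESeq2, 262 with library totals, 47 with the replicate block, 38 with no extension, 197 at 50 kb and 25 to 125 on leaving out single libraries.

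Library totals shifted all regions by a median log2 of -0.22 and all loci by -0.20, and fold enrichment shifted regions by -0.30. The share of a library's tags in peaks was 16.4 to 23.8% in d22 and 19.9 to 26.6% in pbs. The median fold of its peaks was 12.27 to 15.05 in d22 and 15.1 to 18.69 in pbs. The main values are scaled to tags in the tested regions, so a difference common to all regions would not show in them. With library totals the sign turned at the starts of Irs1 (-0.17), Foxo1 (-0.064), Igf1 (-0.13) and Ghr (-0.10), at the loci of Insr (-0.026), Foxo1 (-0.093), Foxo3 (-0.12), Igf1 (-0.092) and Ghr (-0.061), and at Inppl1 (-0.0305) and Flcn (-0.035). By fold enrichment it turned at the region inside Insr near 59 kb (-0.054), the second Irs1 region (0.077), the Foxo1 start (-0.21), the region inside Foxo3 (-0.0018), the Igfbp1 start (-0.41), the region inside Igf1 (-0.050) and the Ghr start (-0.36), and at Trib3 (-0.12), Ptpn1 (-0.77, limma adjusted p = 0.00496), Inppl1 (-0.16), Bcl6 (-0.12), Ddit4 (-0.61), Ulk1 (-0.0555) and Flcn (-0.37). Per kb it turned at the other region inside Insr (0.14), the second Irs1 region (0.090) and the starts of Irs2 (0.071) and Foxo3 (0.057). The Foxo3 start, near 0, also turned with DESeq2 (0.0010), a mean of 50 tags (0.0021) and a score of at least 100 (0.049). Irs2 turned with 49 bp tags (0.085) and, as a locus, at 50 kb (0.14). On leaving out single libraries signs turned for tags at the starts of Foxo3 (-0.025 to 0.035) and Irs1 (-0.042 to 0.11), inside Insr (-0.16 to 0.046) and Igf1 (-0.021 to 0.33), for called length at Igfbp1 (start -0.082 to 0.21, upstream -0.039 to 0.032) and for the loci of Irs2 (-0.10 to 0.022) and Ghr (-0.0040 to 0.20). Beyond these shifts and the smaller sets the cause was not tested.

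In the gene lists, receptor to AKT gave 3 calls by fold enrichment. Growth hormone and IGF gave 0 with 49 bp tags, with 1 peak per library and per kb, and 1 to 2 on leaving out single libraries. FoxO gave 1 with 49 bp tags, 1 with peaks 500 bp apart joined, 7 with library totals, and 0 with 1 peak per library and per kb. The mTORC1 list gave 2 with DESeq2, 2 by fold enrichment, 0 with library totals, with 1 peak per library, per kb and with a score of at least 100, and 0 to 2 on leaving out single libraries. Called length gave 0 of the 16 regions by limma under every alternative run.

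The deviations of libraries of the same number had correlations of -0.0060 to 0.16. The best pbs partner of d22 2 had the same number (0.16), and those of the other d22 libraries did not. These values cannot tell whether equal numbers share a preparation, so the replicate block is given as an alternative only. With the replicate block 128 regions passed, and the log2 differences were -0.91 at Depp1, -0.89 at Igfbp2 and 0.24 at Igfbp1. It ended the call of Ddit4 (0.42, edgeR adjusted p = 0.0833), and Ulk1 passed with it (0.42, edgeR adjusted p = 0.0446).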

Other observations

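Several genes of the same pathways had no region within 1 kb of a gene end that was called in all 12 libraries. They included the imprinted genes Igf2, Igf2r and Grb10, the IGF1 receptor gene Igf1r, the binding protein genes Igfbp3 and Igfbp5, and Foxo6, Ppargc1a, Cdkn1a, Ywhaz and Rragd, so their tags were not tested. Of the 48 regions of the 10 genes called in 1 library, 20 (41.7%) were called in d22 4, against 58.4% of the 27269 such regions over the genome.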
